A study of Mus musculus with 21 samples.

Results

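Expression of 8 genes of Schwann cells and other neural crest glia was followed in mouse embryos, namely Sox10, Foxd3, Erbb3, Gfra3, Cdh19, Fabp7, Mbp and S100b. The genes were taken by symbol from the 24594 genes of each count table. They were measured by RNA-seq in 21 libraries of 7 groups, with 3 replicates per group. The stage series holds cranial neural crest cells (CNCCs) that were sorted for a red fluorescent reporter from Wnt1::Cre;ROSA RFP embryos, in which the Wnt1 promoter drives Cre in premigratory crest progenitors and leaves their progeny permanently labelled. At E10.5 (E for embryonic day) they were taken from pharyngeal arch 2 (PA2), and at E12.5 and E14.5 from the external ear, or pinna, which PA2 forms. Tissue was dissociated with trypsin at E10.5 and E12.5 and with papain at E14.5, so that stage and enzyme cannot be told apart at E14.5. In the genotype series, PA2 and PA3 were dissected at E10.5 from wild-type (WT) embryos and from HIRE1del/del embryos, in which both copies of HIRE1, a distant regulatory region of the Hoxa gene cluster, were deleted by genome editing. The labels call these libraries cranial neural crest cells, and no sorting was stated for them. The mice of both series had a mixed C57Bl/6J;CD1 background, and each library was a pool of male and female embryos.

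Schwann cell precursors are crest-derived glial cells that travel along growing nerves, depend on neuregulin from the axons, and later become Schwann cells, melanocytes and other cell types. Sox10 is the transcription factor that keeps the glial and melanocyte lineages of the crest, and Foxd3 is an early crest factor that stays on in glial precursors. Erbb3 is the receptor through which these cells receive neuregulin, Gfra3 is the receptor for the growth factor artemin, and Cdh19 is a cadherin of Schwann cell precursors. Fabp7 is a fatty acid binding protein of immature glia, Mbp is a structural protein of myelin, and S100b is a calcium binding protein of maturing glia.

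Reference sequence just upstream of the transcript start was held for 3 of the 8 genes, Foxd3, Fabp7 and S100b (RefSeq promoter table, GRCm38.p6). The stretches of Foxd3 and Fabp7 are shown because, of these 3 genes, they had the lowest and the highest level in the sorted cells. There Foxd3 had no count in any library, and Fabp7 was detected at every stage and was highest at E14.5. Both lie on the plus strand and end at the base before the annotated gene, at chr4:99656049-99656298 for Foxd3 and chr10:57784673-57784880 for Fabp7, and capitals mark CG dinucleotides.
Foxd3: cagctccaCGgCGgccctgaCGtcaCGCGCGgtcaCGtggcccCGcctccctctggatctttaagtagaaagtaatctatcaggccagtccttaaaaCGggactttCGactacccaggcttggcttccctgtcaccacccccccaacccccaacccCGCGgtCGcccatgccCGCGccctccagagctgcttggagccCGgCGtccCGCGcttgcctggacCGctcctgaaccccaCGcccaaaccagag
Fabp7: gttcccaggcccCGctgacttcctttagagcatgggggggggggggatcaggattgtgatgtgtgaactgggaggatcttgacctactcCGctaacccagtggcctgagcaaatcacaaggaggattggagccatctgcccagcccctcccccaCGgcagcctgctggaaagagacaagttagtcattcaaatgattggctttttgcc
The Foxd3 stretch held 21 CG dinucleotides in 250 bases, with a GC content of 65.6%. As many or more were found in 16.3% of 32851 promoter stretches of that length, whose median was 6. The Fabp7 stretch held 3 in 208 bases, and 65.0% of stretches of that length held as many or more, with a median of 4. For S100b the count was 2 in 250 bases, which 81.2% of stretches reached. The core letters ACAAAG and AACAAT, which SOX proteins are known to bind, were searched on both strands and were not found in any of the 3 stretches. At 250 bases they occur in 16.5% and 9.42% of stretches respectively, and at 208 bases in 14.1% and 8.22%.

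Before the glial genes, the libraries were checked for depth, for the deleted element and for other cell types. The total count was 25.8 to 32.2 M per library, except at E14.5, where it was 47.5 to 49.1 M. Hoxa2, whose expression depends on the deleted region, stood at 73.4 to 84.2 CPM (counts scaled to library size) in PA2 of WT and 4.75 to 7.10 CPM in PA2 of HIRE1del/del embryos, and at 56.0 to 65.1 and 22.1 to 25.6 CPM in PA3. The 7 markers of arch mesenchyme, the main derivative of the crest in the arches, were all at 1 CPM or more on average in each of the 7 groups. Markers of cells that are not of the crest differed between the 2 series. The 6 erythroid markers summed to 1.83 to 11.6 CPM in the sorted libraries, 1526 to 3308 CPM in the PA2 libraries of the genotype series and 12356 to 24430 CPM in those of PA3. The 7 epithelial markers summed to 8.20 to 45.4, 206 to 244 and 371 to 561 CPM in the same libraries. Levels of the 2 series are therefore set side by side with no test between them.

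Of the 8 glial genes, 6 passed the filter on low counts (1 CPM in at least 2 libraries) in the stage series and were tested among 13438 genes. In the genotype series 5 passed and were tested among 14383 genes. Foxd3 and S100b passed in neither, and Gfra3 passed in the stage series only, through its libraries of E12.5 and E14.5. In bulk samples a lower level can come from fewer cells of a type or from less RNA per cell, and these cannot be told apart here. Calls were made with the quasi-likelihood test of edgeR at 0.05 after Benjamini-Hochberg adjustment over all genes tested.

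**Figure D1:**
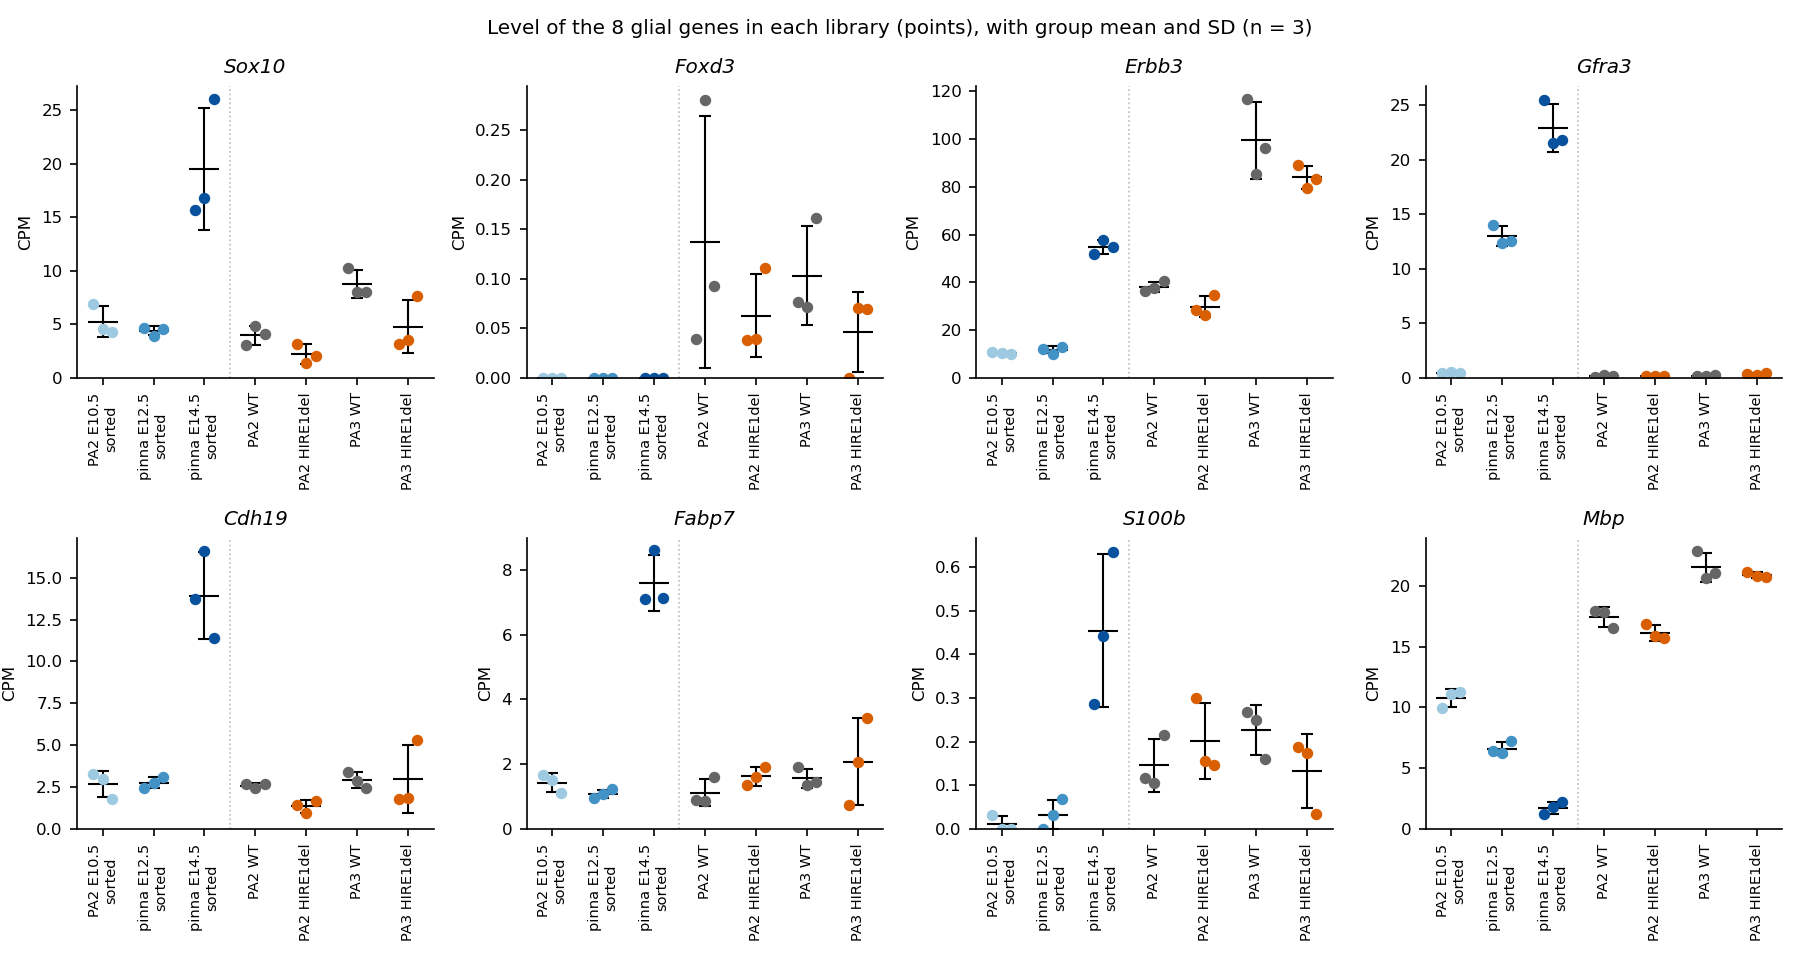
CPM of the 8 genes in each of the 21 libraries, by group, with 1 panel per gene, points for libraries and black bars for the group mean and SD. Sox10, Erbb3, Cdh19 and Fabp7 were highest among the sorted libraries in the pinna at E14.5, Mbp was lowest there, and Foxd3 was at 0 in all 9 sorted libraries.

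The stage series follows CNCCs of PA2 and of the pinna derived from it. Between E10.5 and E12.5 Gfra3 rose 27.5-fold and Mbp fell, and Sox10, Erbb3, Cdh19 and Fabp7 were not called. Between E12.5 and E14.5, Sox10, Erbb3, Cdh19 and Fabp7 rose between 4.46-fold and 6.95-fold, Gfra3 rose further and Mbp fell further. S100b was first seen in more than 2 counts at E14.5, and Foxd3 was not detected at any stage.

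Sox10 (ENSMUSG00000033006) lies at chr15:79154908-79165240 on the minus strand (GRCm38). Its level in sorted cells was 6.89, 4.53 and 4.31 CPM at E10.5, 4.68, 3.89 and 4.55 CPM at E12.5, and 15.7, 16.8 and 26.1 CPM at E14.5. The 3 libraries of E14.5 stood above all 6 earlier ones, whereas the ranges of E10.5 and E12.5 overlapped. The rise from E12.5 to E14.5 was 2.16 on the log2 scale (SE 0.228, 4.46-fold, edgeR adjusted p = 9.17e-06). From E10.5 to E12.5 the difference was -0.26 (95% interval -0.79 to 0.26, edgeR adjusted p = 0.343). In the genotype series Sox10 averaged 3.97 CPM ± 0.899 (SD, n = 3) in PA2 of WT embryos, beside 5.25 ± 1.43 in the sorted cells of that arch and stage.

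Erbb3 (ENSMUSG00000018166, chr10:128567523-128589652, minus strand), the neuregulin receptor, was at 10.8, 10.501 and 9.77 CPM at E10.5, 11.8, 10.1 and 12.98 CPM at E12.5, and 51.7, 57.6 and 54.6 CPM at E14.5. The E10.5 and E12.5 libraries overlapped, and those of E14.5 lay far above both with little spread. It rose by 2.23 from E12.5 to E14.5 on the log2 scale (SE 0.0949, 4.70-fold, edgeR adjusted p = 1.05e-08). The earlier step was 0.17 (95% interval -0.05 to 0.39, edgeR adjusted p = 0.150), and it passed the threshold (adjusted p = 0.0294) only where replicate 2 of E12.5 was left out.

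Cdh19 (ENSMUSG00000047216, chr1:110888326-110977584, minus strand), the precursor cadherin, had 3.31, 2.99 and 1.80 CPM at E10.5 and 2.45, 2.74 and 3.09 CPM at E12.5. At E14.5 it had 13.7, 16.6 and 11.4 CPM. Again the last stage alone stood apart, with a rise of 2.33 (SE 0.219, 5.03-fold, edgeR adjusted p = 3.70e-06) over E12.5. The step before it was 0.04 on the log2 scale (95% interval -0.48 to 0.55).

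Fabp7 (ENSMUSG00000019874, chr10:57784881-57788450, plus strand), whose upstream sequence is shown above, was low until E12.5, at 1.67, 1.51 and 1.11 CPM at E10.5 and 0.965, 1.08 and 1.22 CPM at E12.5. At E14.5 it reached 7.09, 8.60 and 7.12 CPM, above every earlier library. This was a rise of 2.80 over E12.5 (SE 0.201, 6.95-fold, edgeR adjusted p = 4.73e-07). The difference of E12.5 from E10.5 was -0.39 (95% interval -0.87 to 0.09, edgeR adjusted p = 0.132), which was called (adjusted p = 0.0490) where replicate 3 of E10.5 was left out.

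Gfra3 (ENSMUSG00000024366, chr18:34689898-34720387, minus strand), the artemin receptor, was nearly absent at E10.5, at 0.435, 0.549 and 0.425 CPM. It was at 14.04, 12.3 and 12.54 CPM at E12.5 and 25.5, 21.5 and 21.8 CPM at E14.5. The 3 stages followed each other with no overlap, and the order in time differed from that of Sox10, Erbb3, Cdh19 and Fabp7 in that the large step was the earlier one. That step was 4.78 on the log2 scale (SE 0.155, 27.5-fold), and since the gene passed the filter only through the later libraries, where it was high, it had to differ from E10.5 and no p is given. The later step was 0.82 (SE 0.103, 1.77-fold, edgeR adjusted p = 3.34e-05). Artn, the gene of its ligand artemin, averaged 1.01 CPM at E10.5, 2.07 CPM at E12.5 and 1.90 CPM at E14.5, and the rise from E10.5 to E14.5 was 0.91 (SE 0.242, edgeR adjusted p = 0.00441).

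Mbp (ENSMUSG00000041607, chr18:82475146-82585637, plus strand) ran the other way. It was at 9.94, 11.1 and 11.2 CPM at E10.5, 6.39, 6.24 and 7.21 CPM at E12.5, and 1.26, 1.81 and 2.21 CPM at E14.5. The stages did not overlap and fell in order. The change was -0.70 for the earlier step (SE 0.173, 1.63-fold lower, edgeR adjusted p = 0.00356) and -1.91 for the later (SE 0.187, 3.75-fold lower, edgeR adjusted p = 5.20e-06). The Mbp locus also makes the Golli transcripts, which are used in cells that form no myelin, and a count per gene does not separate them from the myelin form.

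S100b (ENSMUSG00000033208, chr10:76253853-76261159, plus strand) had 1, 0 and 0 counts in the E10.5 libraries and 0, 1 and 2 counts at E12.5. At E14.5 it had 13, 21 and 29 counts, which is 0.286, 0.441 and 0.635 CPM. The summed counts of E14.5 and E10.5 were 63 and 1, a depth-corrected ratio of 40.7 with a 95% counting interval of 7.05 to 1634. Against the 3 counts of E12.5 the ratio was 13.2 (4.31 to 65.6). These intervals cover counting error only, and S100b was too low for the test across genes. Foxd3 (ENSMUSG00000067261, chr4:99656299-99658622, plus strand), a gene of which 89 of 2324 exonic bases are shared with Gm23366 on the same strand, had 0 counts in all 9 sorted libraries, which allows up to 0.0631 to 0.111 CPM in a single library (3 counts).

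Over the whole interval from E10.5 to E14.5 the rise was 48.6-fold for Gfra3, 5.31-fold for Fabp7, 5.28-fold for Erbb3, 5.16-fold for Cdh19 and 3.72-fold for Sox10, and Mbp was 6.11-fold lower (edgeR adjusted p between 1.01e-09 and 9.01e-06 for the 5 genes other than Gfra3). Changes of gene expression were very frequent in this series, and the counts of glial genes are to be read against that. From E10.5 to E12.5, 1 of the 6 tested glial genes was called higher and 1 lower, where 68.8% of all tested genes were called, 35.0% higher and 33.7% lower. From E12.5 to E14.5, 5 were higher and 1 was lower, where 65.7% of all genes were called, 32.6% higher and 33.1% lower. From E10.5 to E14.5 the count was again 5 and 1, where 82.0% were called, 42.0% higher and 40.0% lower. These counts include Gfra3, which passed the filter through its later stages alone. The median log2 fold change of the 6 genes was -0.11, 2.20 and 2.38 in these comparisons, beside 0.01, -0.01 and 0.02 over all tested genes. Of all genes, 4382 rose and 4442 fell from E12.5 to E14.5, and 3518 rose and 5612 fell when libraries were scaled by their total counts only, which moved the median of all genes to -0.13 and changed no call of a glial gene.

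**Figure D2:**
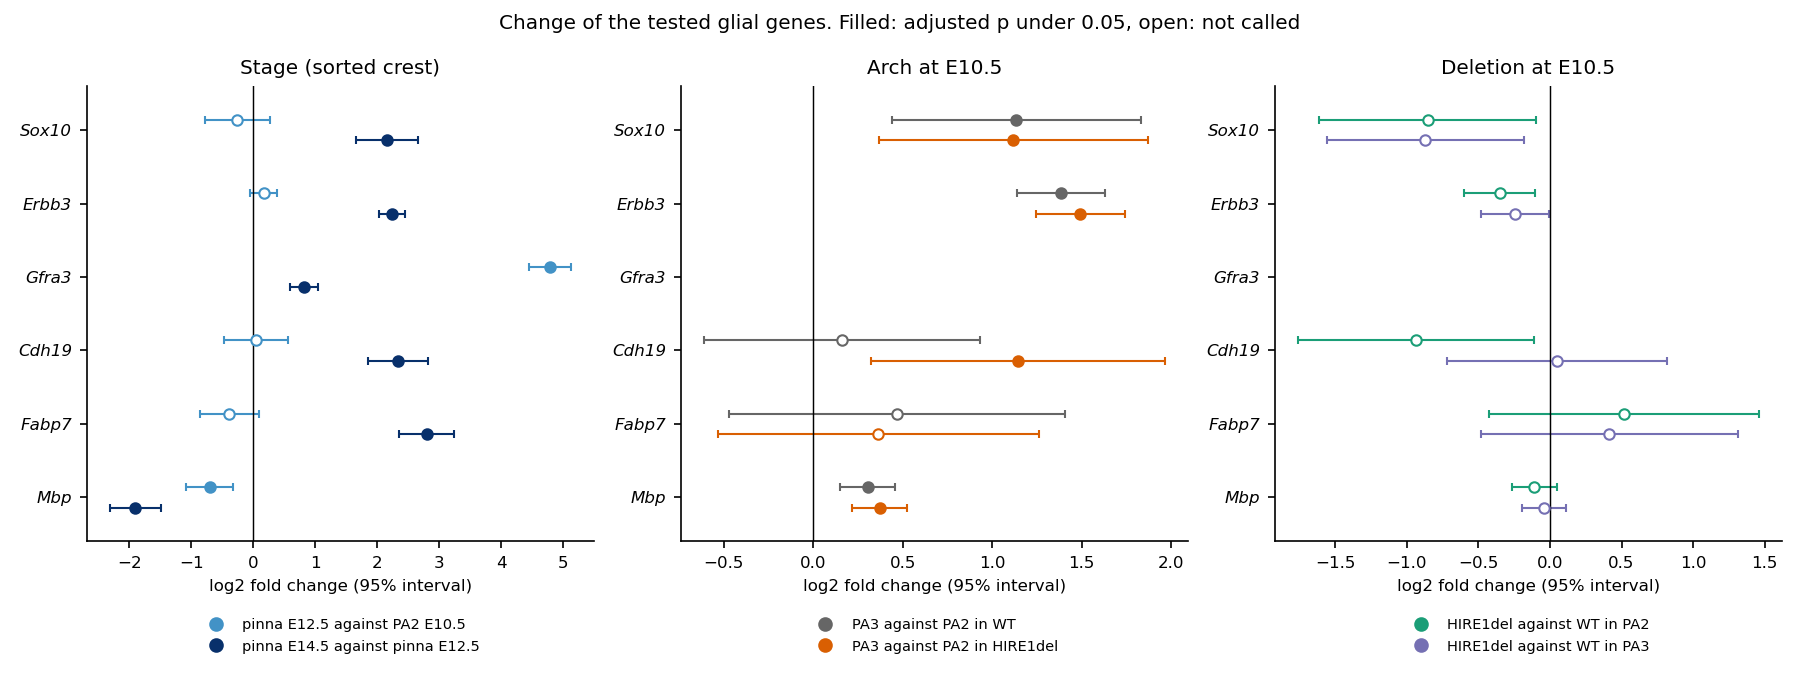
Log2 fold change of the tested glial genes between stages, between arches and between genotypes, with 95% intervals, where filled points are genes called at an adjusted p under 0.05. Between E12.5 and E14.5 the 5 rises lie between 0.82 and 2.80 and Mbp lies at -1.91, whereas no gene was called between HIRE1del/del and WT.

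Per kilobase of exonic sequence (RPKM), which allows levels of different genes to be compared, the order changed with stage. At E10.5 Sox10 and Erbb3 were both at 1.72 RPKM, followed by Mbp at 1.27, Fabp7 at 1.15, Cdh19 at 0.630 and Gfra3 at 0.235 RPKM. At E14.5 Gfra3 was highest with 11.5 RPKM, before Erbb3 with 9.08, Sox10 with 6.39, Fabp7 with 6.08, Cdh19 with 3.25 and Mbp with 0.208 RPKM. In the unsorted arches Erbb3 stood above the others, at 6.33 RPKM in PA2 and 16.5 RPKM in PA3 of WT embryos, where Sox10 was at 1.30 and 2.87 RPKM. The level of Erbb3 relative to Sox10 per length was 1.04 ± 0.214 at E10.5, 1.35 ± 0.0863 at E12.5 and 1.49 ± 0.373 (SD, n = 3) at E14.5 in sorted cells. It was 5.02 ± 1.07 in PA2 and 5.76 ± 0.357 in PA3 of WT embryos, and 7.62 ± 2.72 and 10.4 ± 4.41 in HIRE1del/del embryos. The unsorted arches also had more RNA of epithelial and other markers than sorted cells, and the part of such cells in the Erbb3 level was not tested.

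Other genes of the glial lineage were described by lists, whose counts from E10.5 to E14.5 stand beside the 82.0% of all tested genes that were called in that comparison, 42.0% higher and 40.0% lower. Genes low at E10.5 or at E14.5 could enter the test through other libraries, where they were high. The filter itself could thus favour a difference, and the counts and medians of the lists include such genes, among them Pax3. Among 11 transcription factors of the crest and of Schwann cell precursors, 10 were tested in the stage series, and from E10.5 to E14.5 6 rose and 3 fell, a share called near that of all genes, with a median of 1.52 on the log2 scale. Pax3, a crest and melanocyte factor, rose from 0.304 to 13.9 CPM, and Zeb2, which Schwann cells need for myelination, rose from 72.0 to 353 CPM. The factors of the SOX family differed in direction, since Sox9 fell from 77.9 to 1.76 CPM (-5.47, SE 0.161, edgeR adjusted p = 1.14e-10) and Sox8, a close relative of Sox10, fell from 14.7 to 5.72 CPM (-1.36, SE 0.142, edgeR adjusted p = 3.15e-06), whereas Sox2 rose from 1.02 to 2.62 CPM. Sox9 and Sox8 are also expressed in skeletal and mesenchymal cells.

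Of 17 surface and secreted genes of Schwann cell precursors, 16 were tested, and 14 rose and 1 fell from E10.5 to E14.5 (median 1.98), where 42.0% of all tested genes rose and 40.0% fell. L1cam, an adhesion molecule of axons and Schwann cells, rose from 2.29 to 9.57 CPM. Ednrb, the endothelin receptor of crest and melanoblasts, rose from 6.69 to 66.4 CPM (3.31, SE 0.191, edgeR adjusted p = 1.88e-08). Gap43, a growth cone protein that precursors also carry, fell by 0.20 on the log2 scale.

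Partners of the 2 receptors were measured too, against the same share of 42.0% of all genes called higher from E10.5 to E14.5 and, for E12.5 against E10.5, 35.0%. All 5 tested genes of 8 in the neuregulin pathway rose from E10.5 to E14.5, among them Erbb2, the co-receptor that Erbb3 needs for signalling, from 90.5 to 227 CPM, and the ligand Nrg1, from 5.16 to 17.7 CPM. Of the 8 other GDNF family ligands and receptors, 6 were tested, all 6 were higher at E12.5 than at E10.5, and 5 were higher at E14.5. These counts include Gdnf, which averaged under 1 CPM at E10.5 and could enter the test through later libraries. Gfra1, the receptor for GDNF, rose from 6.32 to 172 CPM and Gdnf from 0.770 to 35.6 CPM, whereas Ret, the signalling partner of these receptors, was at 0.390 and 0.253 CPM and was not tested.

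Among 15 other myelin genes and regulators, 6 were tested, and 5 of them rose from E10.5 to E14.5 (median 2.83), where 42.0% of all genes rose and 40.0% fell. Examples were Pmp22, a peripheral myelin protein that fibroblasts also make, from 15.0 to 250 CPM, and Pou3f1, a regulator of Schwann cell maturation, from 1.26 to 12.1 CPM. Egr2, the factor that drives myelination, had no count in any of the 21 libraries. The 10 genes of central and satellite glia were mixed, with 3 of 6 tested higher and 3 lower. Of 17 relatives of the 8 genes, 14 were tested and 9 rose and 3 fell. Foxd1 and Foxd2, the paralogs of Foxd3, were expressed where Foxd3 was not, at 30.5 and 34.8 CPM at E10.5, and fell to 0.373 and 0.356 CPM, and S100a6, a relative of S100b, rose from 0.890 to 23.5 CPM.

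**Figure D3:**
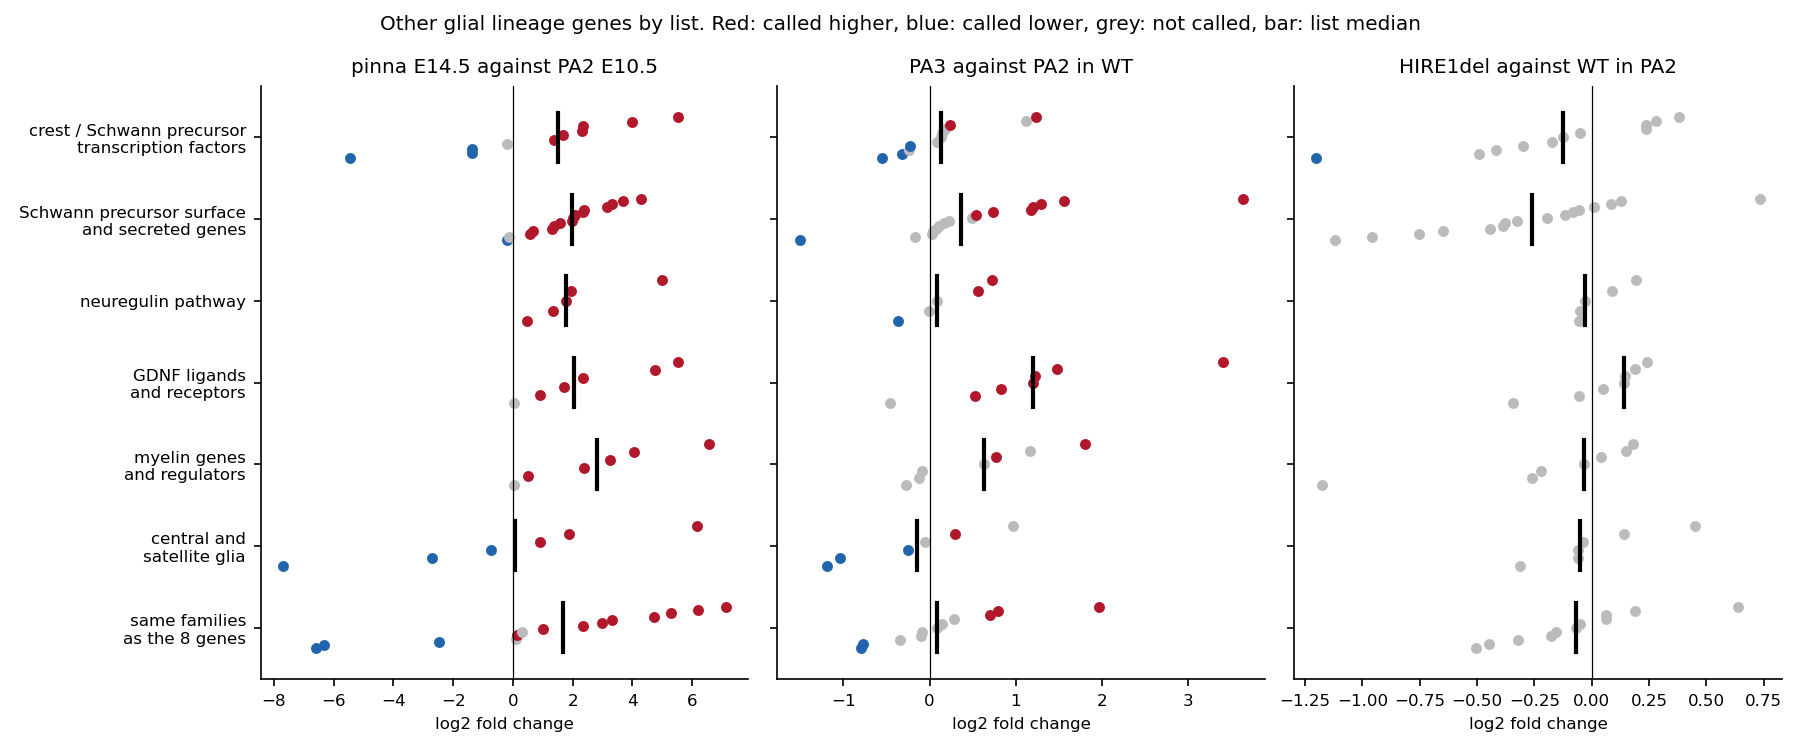
Log2 fold change of every tested gene of the glial lists from E10.5 to E14.5, between PA3 and PA2 of WT embryos and between HIRE1del/del and WT embryos in PA2, by list, with red and blue for genes called higher and lower and a bar for the list median. Most surface, neuregulin, GDNF and myelin genes lie above 0 at E14.5, whereas the transcription factors spread from -5.47 for Sox9 to 5.51 for Pax3.

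Markers of other cell types changed over the same stages, in part at another step. Melanoblasts, crest-derived precursors of pigment cells, also express Sox10 and Ednrb. Their 9 markers summed to 60.8 to 80.7 CPM at E10.5, 52.2 to 73.2 CPM at E12.5 and 380 to 434 CPM at E14.5. Most of the sum at E10.5 was Kit, which averaged 65.3 CPM there. Kit fell to 24.3 CPM at E12.5, where the sum of the 9 markers averaged 62.2 CPM. The other 7 of the 8 tested markers already rose from E10.5 to E12.5, where 35.0% of all tested genes were called higher. At that step Sox10, Erbb3, Cdh19 and Fabp7 were not called. All 8 rose from E12.5 to E14.5, where 32.6% of all genes were called higher. Of the 9 markers, 3 averaged 1 CPM or more at E10.5, 6 at E12.5 and 8 at E14.5. Markers low at E10.5 could enter the test through later libraries, where they were high, which limits the contrast with the glial genes. Dct, an enzyme of melanin synthesis, averaged 0.953, 8.81 and 143 CPM at the 3 stages, and Tyrp1, another such enzyme, had no count at E10.5 and 10.4 CPM at E14.5. The 10 glial markers summed to 35.0 to 38.8, 44.1 to 49.7 and 132 to 143 CPM at the 3 stages. The 12 neuron markers summed to 37.8 to 44.0 CPM at E10.5 and to 12.2 to 19.1 CPM at E14.5, where Neurog1 and Neurod1 were among those with no count. The 6 endothelial markers summed to 7.03 to 9.74 CPM at E10.5 and 110 to 173 CPM at E14.5, almost all of it Kdr. The 7 epithelial markers summed to 9.43 to 11.7 CPM at E10.5, 8.20 to 9.89 CPM at E12.5 and 27.0 to 45.4 CPM at E14.5, and of the 6 tested Cdh1, Krt5, Krt14 and Trp63 rose and Epcam and Krt18 fell from E12.5 to E14.5. The part of any of these in the glial genes was not tested.

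**Figure D4:**
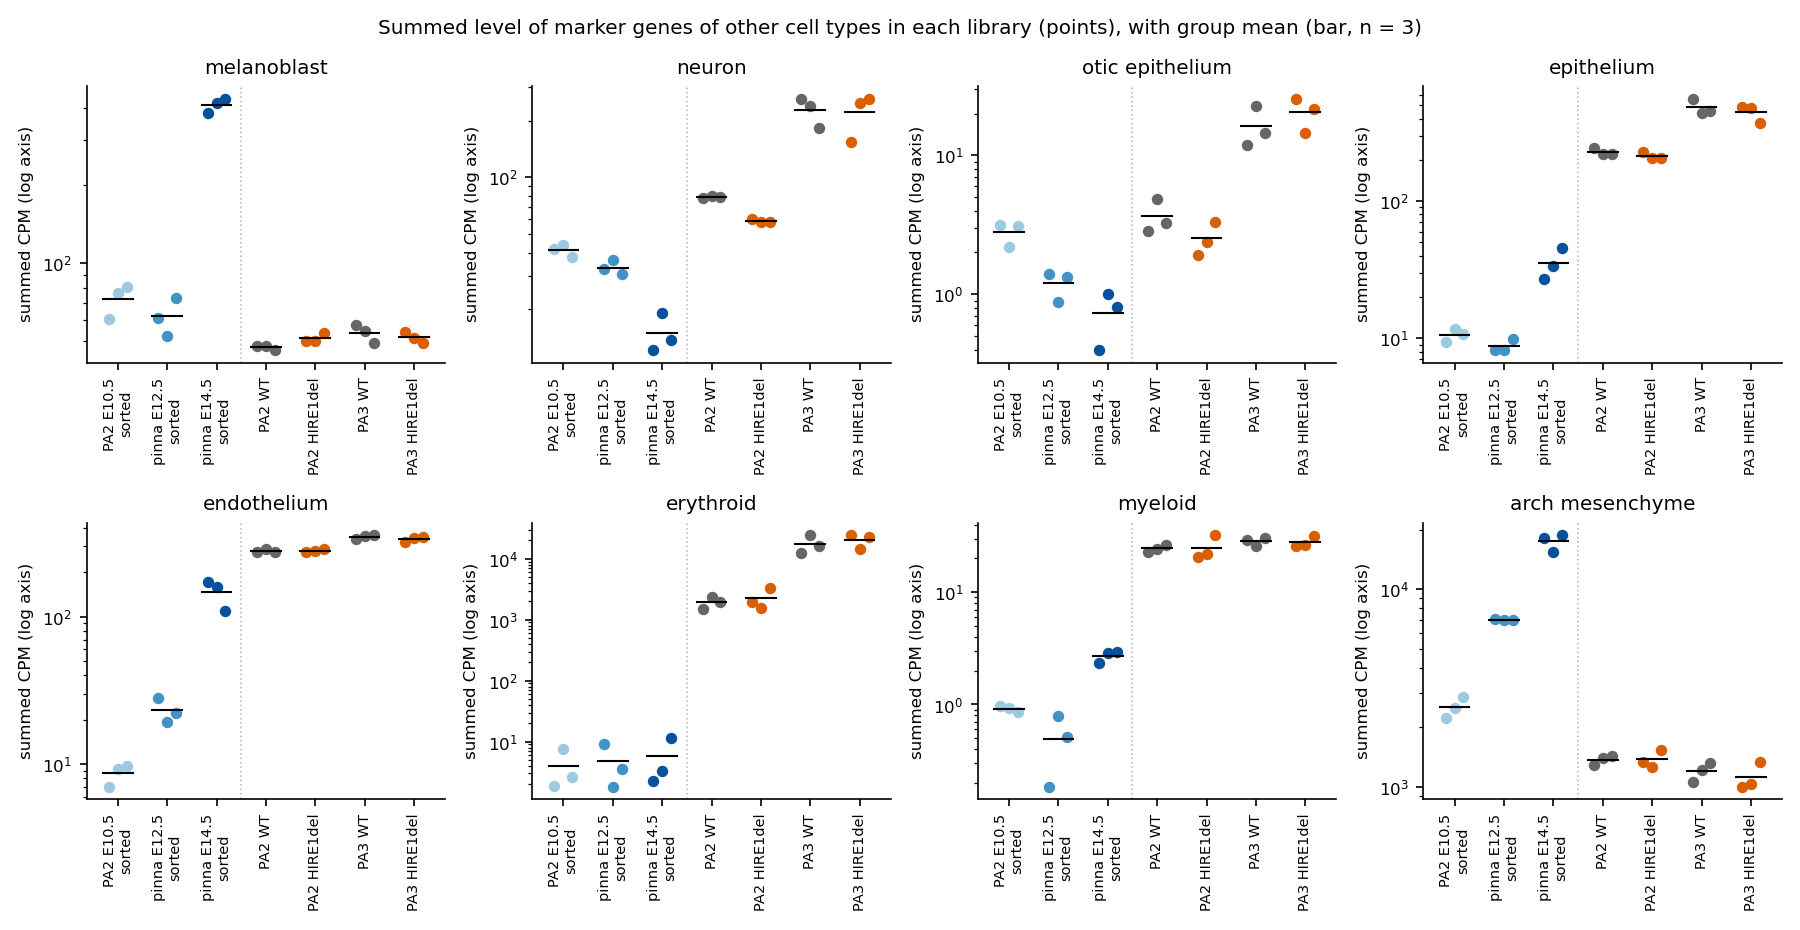
Summed CPM of the markers of 8 cell types in each of the 21 libraries on a log axis, by group, with points for libraries and bars for group means. Melanoblast markers are highest in the pinna at E14.5, and erythroid, epithelial and neuron markers are higher in the unsorted arches than in sorted cells, and higher in PA3 than in PA2.

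The genotype series asked what is lost when HIRE1 is deleted. No glial gene was called between HIRE1del/del and WT embryos in either arch. Sox10 and Erbb3 had lower means in HIRE1del/del embryos in both arches, by differences that did not pass the adjusted threshold, Cdh19 had a lower mean in PA2, and Mbp was nearly level.

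In PA2, Sox10 was at 3.02, 4.81 and 4.09 CPM in WT and 3.19, 1.403 and 2.00 CPM in HIRE1del/del embryos. The ranges overlapped through replicate 1 of each genotype. The difference was -0.85 on the log2 scale (SE 0.350, 95% interval -1.61 to -0.10, unadjusted p = 0.0296, edgeR adjusted p = 0.510), and the adjusted p lay between 0.330 and 0.920 in 14 alternative analyses.

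Erbb3 in PA2 was at 36.3, 37.5 and 40.4 CPM in WT and 28.4, 26.4 and 34.7 CPM in HIRE1del/del embryos. All 3 HIRE1del/del libraries lay below the WT libraries. The difference was -0.35 (SE 0.116, 95% interval -0.60 to -0.10, edgeR adjusted p = 0.398, 0.146 to 0.874 in the alternatives). Cdh19 likewise had no overlap, with 2.67, 2.46 and 2.68 CPM in WT and 1.43, 0.935 and 1.70 CPM in HIRE1del/del embryos, a difference of -0.94 (SE 0.383, 95% interval -1.76 to -0.11, edgeR adjusted p = 0.509, 0.254 to 0.920 in the alternatives). Ranges were thus apart for 2 of the 5 tested genes, and they were apart for 13.2% of all tested genes. Fabp7 averaged 1.123 CPM in WT and 1.62 CPM in HIRE1del/del embryos with overlapping ranges (0.52, 95% interval -0.42 to 1.46), and Mbp averaged 17.4 and 16.1 CPM (-0.11, 95% interval -0.27 to 0.05).

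In this arch 0 of 5 glial genes were called by edgeR, where 0.438% of all tested genes were called, and 3 of 5 had an unadjusted p under 0.05, where 8.57% of all genes did. DESeq2 and limma-voom also called 0 and gave 3 genes an unadjusted p under 0.05. With any single PA2 library left out, edgeR gave 1 or 2 such genes. The summed level of the 12 neuron markers was 57.7 to 59.9 CPM in PA2 of HIRE1del/del embryos and 77.6 to 80.0 CPM in WT, most of it Isl1, which averaged 39.8 and 50.6 CPM. None of the 11 tested neuron markers was called. Melanoblast markers summed to 46.0 to 47.7 CPM in WT and 49.9 to 53.4 CPM in HIRE1del/del embryos. Their part in the glial values was not tested.

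In PA3, Sox10 was at 10.3, 8.002 and 7.98 CPM in WT and 3.18, 3.53 and 7.61 CPM in HIRE1del/del embryos. The genotypes did not overlap, but replicate 3 of HIRE1del/del came close to the lowest WT library. The difference was -0.87 (SE 0.319, 95% interval -1.56 to -0.18, edgeR adjusted p = 0.415), and without that replicate it was -1.39 (SE 0.284, adjusted p = 0.0732, the lowest of the alternatives, which reached up to 0.839).

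The same library stood apart for Cdh19, which was at 3.404, 2.89 and 2.45 CPM in WT and 1.80, 1.89 and 5.32 CPM in HIRE1del/del embryos, so that the difference was 0.05 (95% interval -0.72 to 0.82) with it and -0.67 (SE 0.250, adjusted p = 0.287) without it. Fabp7 had 1.91, 1.36 and 1.45 CPM in WT and 0.748, 2.06 and 3.44 CPM in HIRE1del/del embryos, a difference of 0.41 (95% interval -0.48 to 1.31) with replicate 3 and -0.16 (SE 0.401) without it. For both genes the sign thus rested on 1 library. Erbb3 did not share this, at 117, 85.3 and 96.3 CPM in WT and 89.0, 79.5 and 83.3 CPM in HIRE1del/del embryos (-0.24, SE 0.110, 95% interval -0.48 to -0.01, edgeR adjusted p = 0.499), and Mbp averaged 21.5 and 20.9 CPM.

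Here too edgeR called 0 of 5 glial genes, where 0.216% of all genes were called, and 2 of 5, Sox10 and Erbb3, had an unadjusted p under 0.05, as did 9.73% of all genes. DESeq2 and limma-voom called 0 and gave 2 such genes. With single PA3 libraries left out, edgeR gave 0 to 2. Ranges were apart for 1 of 5, beside 14.3% of all genes. The difference between the deletion effects in PA2 and PA3 was called for 0 of 5, with 0 at an unadjusted p under 0.05 by edgeR, DESeq2 or limma-voom, where 0.0487% of all genes were called and 5.52% passed the unadjusted threshold. With a replicate block edgeR gave 1 such gene. It also gave 1 without replicate 1 or without replicate 2 of PA3 HIRE1del/del, and 0 without any other single library. For Sox10 the difference between the effects was 0.02 with a 95% interval of -1.05 to 1.08, and for Cdh19 it was -0.99 (-2.11 to 0.14), so that differences of the size of the effects themselves could not be seen.

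Foxd3, S100b and Gfra3 were near the limit of detection in the arches. Foxd3 had 1, 8 and 3 counts in PA2 and 2, 2 and 5 counts in PA3 of WT embryos, and 1, 1 and 3 and 0, 2 and 2 counts in HIRE1del/del embryos. It was thus seen in 11 of 12 unsorted libraries and in none of the sorted ones. S100b had 1 to 8 counts per library in the 4 groups, and Gfra3 had 1 to 12 counts. These genes were not tested between genotypes in the main analysis. Their ranges in CPM overlapped in PA2, and in PA3 for S100b. In PA3 Gfra3 was apart, at 0.153 to 0.257 CPM in WT and 0.280 to 0.417 CPM in HIRE1del/del embryos. Foxd3 was apart there by depth alone, since both genotypes held libraries of 2 counts. At so few counts no conclusion is drawn.

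**Figure D5:**
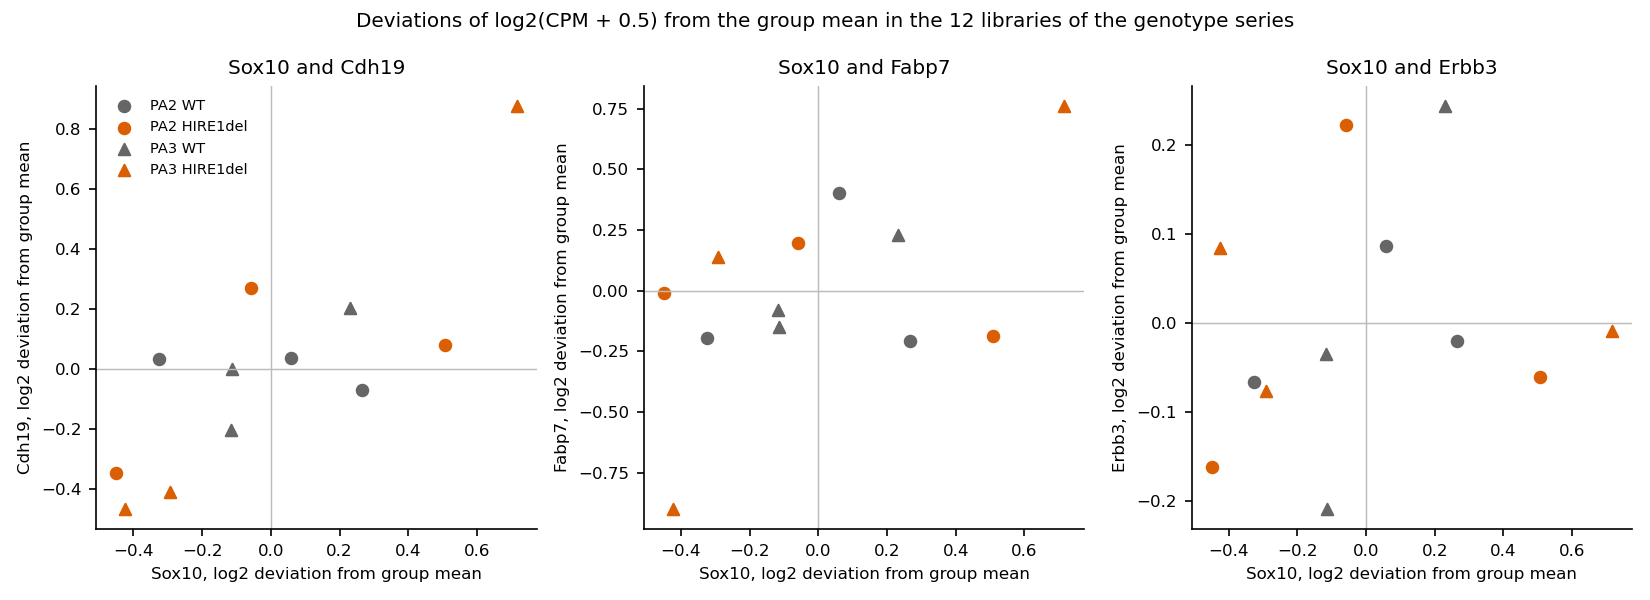
Deviation of Cdh19, Fabp7 and Erbb3 from their group mean, each plotted against that of Sox10, as log2 of CPM plus 0.5, in the 12 libraries of the genotype series. In replicate 3 of PA3 HIRE1del/del, Sox10, Fabp7 and Cdh19 lie at 0.72, 0.76 and 0.88, and Erbb3 at -0.01.

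Within groups, 3 of the genes deviated together in the genotype series. Over the 12 libraries the deviations from the group mean had a Pearson r of 0.79 between Sox10 and Cdh19, 0.72 between Fabp7 and Cdh19 and 0.54 between Sox10 and Fabp7, and of 0.20 between Sox10 and Erbb3. Replicate 3 of PA3 HIRE1del/del had the highest positive deviation of the 12 for each of these 3 genes, with values of 0.72 for Sox10, 0.88 for Cdh19 and 0.76 for Fabp7. In the 9 sorted libraries Fabp7 and Cdh19 had an r of 0.95, and Sox10 and Cdh19 one of 0.05. These are descriptions of a few libraries, which share depth and dissection.

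Of the lists, a single gene was called between genotypes (2 with libraries scaled by total counts only, Sox8 and Ets1, both lower in PA2). The single gene, Sox8, was 1 of 11 tested transcription factors. Over all tested genes, 0.438% were called for the deletion in PA2, 0.216% in PA3 and 0.0487% for the difference between these effects. Sox8 averaged 13.6 CPM in WT and 5.89 CPM in HIRE1del/del embryos in PA2 (-1.20, SE 0.114, edgeR adjusted p = 0.000145), with ranges of 12.2 to 14.6 and 5.18 to 6.39 CPM. In PA3 it averaged 11.5 and 11.1 CPM (-0.06, SE 0.109, edgeR adjusted p = 0.910), and the difference between the arches was itself called (-1.15, SE 0.157, edgeR adjusted p = 0.0205). Sox8 is a close relative of Sox10, as given above. It was named after its values were seen, because it was called.

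PA3 was compared with PA2 within each genotype, and here the glial genes differed. In WT embryos, Sox10, Erbb3 and Mbp were called higher in PA3, and Cdh19 and Fabp7 were not called. Erbb3 had 85.3 to 117 CPM in PA3 and 36.3 to 40.4 CPM in PA2, with the arches far apart (1.39, SE 0.113, 2.61-fold, edgeR adjusted p = 1.82e-06). Sox10 had 7.98 to 10.3 CPM in PA3 and 3.02 to 4.81 CPM in PA2 (1.13, SE 0.323, 2.20-fold, edgeR adjusted p = 0.0145). It was not called when replicate 1 of PA2 (adjusted p = 0.0596) or replicate 1 of PA3 (0.0528) was left out. Mbp had 20.6 to 22.9 CPM in PA3 and 16.5 to 17.9 CPM in PA2 (0.30, SE 0.0718, 1.23-fold, edgeR adjusted p = 0.00507). For Fabp7 the difference was 0.47 (95% interval -0.47 to 1.41) and for Cdh19 0.16 (95% interval -0.61 to 0.93). All 3 calls were in 1 direction, where 36.5% of all genes were called, 19.1% higher and 17.4% lower, and the median of the 5 genes was 0.47, beside -0.00 over all genes.

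In HIRE1del/del embryos 4 of 5 were called higher in PA3, where 33.4% of all genes were called, 18.7% higher and 14.7% lower, and the median of the 5 was 1.119. Erbb3 had 79.5 to 89.0 CPM in PA3 and 26.4 to 34.7 CPM in PA2 (1.49, SE 0.115, 2.81-fold, edgeR adjusted p = 1.22e-06), and Mbp was 1.29-fold higher (0.37, SE 0.0723, edgeR adjusted p = 0.00167). The other calls rested on few libraries. Sox10 overlapped between the arches by its highest PA2 library of 3.19 CPM and its lowest PA3 library of 3.18 CPM (1.119, SE 0.348, edgeR adjusted p = 0.0244). It was no longer called without replicate 2 (adjusted p = 0.0992) or 3 (0.0712) of PA2 or replicate 3 of PA3 (0.145, with a difference of 0.60). Cdh19 was 2.21-fold higher (1.15, SE 0.380, edgeR adjusted p = 0.0331), and lost its call without replicate 1 (0.0702) or 2 (0.122) of PA2 or replicate 3 of PA3 (0.233, with a difference of 0.43). The difference between these arch effects is the same quantity as that between the deletion effects, which was not called for any of the 5 genes.

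The lists are given beside the 36.5% of all tested genes that were called between the arches of WT embryos, 19.1% higher and 17.4% lower, and several were near that share. Of the 16 tested surface and secreted genes, 7 were higher and 1 lower in PA3 of WT embryos. Dhh, a signal that Schwann cell precursors secrete, was at 3.74 CPM in PA3 and 0.293 CPM in PA2 (3.63, SE 0.280). Gap43 was at 28.1 and 80.0 CPM. Of 7 tested GDNF family genes 6 were higher, with Ret at 5.73 CPM in PA3 and 0.547 CPM in PA2 (3.403, SE 0.724). Dhh and Ret averaged under 1 CPM in PA2 and were higher in PA3, so the filter itself could favour a difference. No p is given for Dhh and Ret, and the counts include both. In the neuregulin pathway, Nrg1 and Egfr were higher and Erbin lower among 5 tested, and Erbb2 was at 77.0 and 72.5 CPM and was not called. The transcription factors had 2 higher and 3 lower of 11, with Sox2, a factor of neural and sensory progenitors and of immature Schwann cells, at 31.6 CPM in PA3 and 13.4 CPM in PA2. The myelin genes had 2 higher of 7, the central and satellite glia genes 1 higher and 3 lower of 6, and the relatives of the 8 genes 3 higher and 2 lower of 11.

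Markers of other cells also differed between the arches, where 36.5% of all tested genes were called in WT embryos, 19.1% higher and 17.4% lower. The 12 neuron markers summed to 77.6 to 80.0 CPM in PA2 and 184 to 262 CPM in PA3 of WT embryos, and 10 of 11 tested were called higher. Of the 12, 3 averaged 1 CPM or more in PA2 and 11 in PA3 of WT embryos. Most could thus enter the test through PA3, where they were high, so the filter itself could favour that count. The 5 otic epithelium markers summed to 2.87 to 4.84 and 11.97 to 22.6 CPM, and the erythroid markers, all 6 of them higher, to 1526 to 2396 and 12356 to 24180 CPM. The 7 epithelial markers summed to 221 to 244 and 442 to 561 CPM, with 4 called higher and 1 lower, and the 6 endothelial markers to 273 to 290 and 335 to 359 CPM, with 5 called higher. Arch mesenchyme markers summed to 1285 to 1430 CPM in PA2 and 1057 to 1318 CPM in PA3, with 5 of 7 called lower. Whether these shares of cells set the levels of Sox10, Erbb3 and Mbp was not tested.

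Across the groups of each series, the order of levels was as follows. Sox10 ran in sorted cells from E12.5 (4.37 CPM ± 0.427) and E10.5 (5.25 ± 1.43), which overlapped, to E14.5 (19.5 ± 5.69), and in the arches from PA2 HIRE1del/del (2.20 ± 0.913) over PA2 WT (3.97 ± 0.899) and PA3 HIRE1del/del (4.77 ± 2.46) to PA3 WT (8.76 ± 1.33), where neighbours overlapped except for PA3 HIRE1del/del and PA3 WT. Erbb3 had the same order in the arches, from 29.8 ± 4.31 and 38.1 ± 2.11 to 84.0 ± 4.74 and 99.5 ± 16.05 CPM, and of the neighbours only the 2 PA3 groups overlapped. Cdh19 ran from 1.35 ± 0.388 in PA2 HIRE1del/del and 2.60 ± 0.127 in PA2 WT to 2.91 ± 0.480 in PA3 WT and 3.00 ± 2.01 CPM in PA3 HIRE1del/del (SD, n = 3), and all neighbours but the lowest pair overlapped. Fabp7 lay between 1.123 and 2.08 CPM in the 4 arch groups, all of which overlapped.

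The genes whose pattern was most like that of Sox10 were sought by the Pearson r of log2(CPM + 0.5), taken as the smaller of the r over the 9 sorted libraries and the r over the 12 arch libraries, among 12866 genes. The nearest was Mdga1, a cell surface protein of neurons (0.93), followed by Lhfpl2 (0.90), Tshz2 (0.89), Sertad2, Itpr3, Mfrp, Ripor1, Aebp1, Rin3 and Fgd5 (0.87). Mdga1 averaged 5.08, 4.73 and 15.6 CPM at the 3 stages, 5.90 and 4.24 CPM in PA2 of WT and HIRE1del/del embryos, and 10.4 and 7.26 CPM in PA3. Of the glial genes, Cdh19 ranked 65th and Erbb3 135th, Fabp7 ranked 2774th and Mbp 11937th of 12870. Within groups the likeness was not kept, since by the deviations from group means only Mfrp of the 10 stayed among the nearest 10. These values rest on 3 and 4 group levels, and no p is given.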

How the data were processed

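RNA-seq libraries of 2 series, 9 of sorted cells and 12 of arches, were analysed from the count table of each. The authors aligned reads of 50 bases (single-end in the stage series, paired-end in the genotype series) to GRCm38 with QuasR and HISAT2 and counted them over UCSC known genes in the opposite orientation, and the deposited values are these counts without normalization. The submitters' processing notes name bcl2fastq 2.17 and 2.20. The notes on strand of the kit differ, so that reads of antisense genes may be included.

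Tests used edgeR 4.0.16 under R 4.3.3 (quasi-likelihood test, two-sided, TMM scaling, 1 mean per group, all libraries of a table in 1 fit), and DESeq2 1.42.0, limma 3.58.1 (voom), other scalings and filters, a replicate block and leaving out each library were alternatives. Genes with 1 CPM in at least 2 libraries were tested, and p-values were adjusted over all of them by the method of Benjamini and Hochberg. CPM uses TMM-scaled totals. RPKM divides by the exonic bases per gene that were deposited with the counts. Positions were taken from GENCODE M21. Each library had 25.8 to 49.1 M counts. All 8 genes are named, and list genes are examples, of which some are not reported here. The members and lists were chosen with earlier results of these data known. The scripts were tested on simulated counts. Replicates were not copies of each other (chi-square per degree of freedom 7.11 to 50.5), and nothing says that they came from separate litters, so that p-values measure the spread between these pools. Deviations from group means correlated between PA2 and PA3 libraries of the same genotype and number (r 0.230 to 0.382 in WT, 0.213 to 0.342 in HIRE1del/del). This did not hold in every pair across genotypes or stages. The PA2 and PA3 libraries of a genotype and number were therefore taken as paired, but only in the replicate block of the arch comparisons and of the difference between deletion effects. For the deletion within each arch and for the stage series, the block was the replicate number across genotypes or stages, which these correlations did not bear out. The main tests, whose SE, intervals and p-values are given above, used group means and ignored this pairing. No value column was unused.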

Additional observations from a re-analysis of the deposited data

How the results depend on the processing

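The number of glial genes called was recomputed in 16 alternative analyses of each comparison and 21 of the difference between deletion effects. It stayed within 1.5 times in all of them for 7 of the 8 comparisons. For PA3 against PA2 in HIRE1del/del embryos it was 4, and it was 2 with an adjusted p under 0.01, 2 with the compared groups only, and 2 to 4 when single libraries were left out. It was 2 without replicate 2 of PA2 HIRE1del/del or replicate 3 of PA3 HIRE1del/del, and the lost genes were Sox10 and Cdh19. With the compared groups only, their adjusted p was 0.0584 and 0.0835, and with limma-voom that of Cdh19 was 0.0773. Without a filter the count from E12.5 to E14.5 and from E10.5 to E14.5 was 7 in place of 6, the added gene being S100b. With a replicate block no glial gene changed its call, and the counts remained at 2, 6, 6, 0, 0, 0, 3 and 4, whereas over all genes 105, 54 and 26 genes were called for the deletion in PA2, in PA3 and for their difference, in place of 63, 31 and 7, and DESeq2 called 164, 93 and 27. The block counts of 105 and 54 rest on a pairing of replicate numbers across genotypes, which the correlations of deviations did not bear out. With total counts only, the stage medians of the lists kept their sign, except for the myelin genes from E12.5 to E14.5 (-0.01 in place of 0.12).

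With 3 libraries per group, the 95% intervals of genotype differences were wide for the low genes (-1.61 to -0.10 for Sox10 in PA2), and single libraries moved them. Foxd3, S100b and Gfra3 had too few counts in the arches for a test.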
